A study of Homo sapiens with 6 samples.

Results

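The 9 genes described here encode matrix metalloproteinases, the activators and receptor of the plasminogen system, and tissue inhibitors of metalloproteinases. They were taken by name as MMP7, MMP14, MMP15, MMP24, PLAU, PLAUR, PLAT, TIMP1 and TIMP2, which are 9 of the 20476 genes in the deposited count table. Transcripts were counted in SW620, a human colorectal cancer cell line from a lymph node metastasis, in 3 libraries that stably carried a hairpin RNA directed at ECM1 (shECM1) and in 3 libraries with a negative control hairpin (shNC). The series asks how ECM1, a secreted matrix glycoprotein, bears on the chemokine gene CCL20. All 6 libraries come from the same line, and the labels do not say whether each hairpin line is a clone or a pool, nor whether the replicates come from separate cultures. The p-values given here therefore describe only how far these 6 samples spread. The table's columns carry a letter and a number, and they were matched to the titles by those. That match is an inference, and with the letters swapped each higher value would be a lower one.

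Matrix metalloproteinases are zinc enzymes that are made as inactive precursors and cut collagens, laminins and cell-surface proteins. In the plasminogen system, urokinase (PLAU) bound to its receptor (PLAUR), or tissue-type activator (PLAT), converts plasminogen to plasmin, which itself cuts matrix and can activate metalloproteinase precursors. The inhibitors TIMP1 and TIMP2 block active metalloproteinases, and TIMP2 also takes part in the activation of MMP2 on the cell surface by MMP14. MMP7, or matrilysin, is made by epithelial tumour cells rather than by stroma and is a well-known target of beta-catenin in colorectal tumours.

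The 250 bases before the RefSeq start are shown for 3 of these genes. MMP7 and PLAUR are those with a full AP-1 match, and TIMP1 is the most abundant of the genes. The sequences are RefSeq's on GRCh38.p14, each on its gene's strand. Capitals mark matches, on either strand, to TGANTCA (AP-1), TGAGTAA (a variant AP-1 site known from TIMP1), CTTTGA (TCF, the DNA partner of beta-catenin) and AGGAAG (PEA3, an ETS site).
MMP7 (chr11:102530748-102530997, minus strand): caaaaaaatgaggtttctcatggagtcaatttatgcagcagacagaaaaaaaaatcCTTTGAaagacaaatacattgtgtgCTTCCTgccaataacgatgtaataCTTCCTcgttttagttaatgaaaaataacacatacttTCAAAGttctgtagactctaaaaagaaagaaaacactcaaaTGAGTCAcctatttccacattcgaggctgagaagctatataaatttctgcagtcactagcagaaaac
PLAUR (chr19:43670170-43670419, minus strand): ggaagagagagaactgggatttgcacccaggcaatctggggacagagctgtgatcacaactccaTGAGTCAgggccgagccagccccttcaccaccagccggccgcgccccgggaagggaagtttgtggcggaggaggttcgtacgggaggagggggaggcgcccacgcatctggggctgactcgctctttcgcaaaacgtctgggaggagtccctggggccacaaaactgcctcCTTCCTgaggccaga
TIMP1 (chrX:47582186-47582435, plus strand): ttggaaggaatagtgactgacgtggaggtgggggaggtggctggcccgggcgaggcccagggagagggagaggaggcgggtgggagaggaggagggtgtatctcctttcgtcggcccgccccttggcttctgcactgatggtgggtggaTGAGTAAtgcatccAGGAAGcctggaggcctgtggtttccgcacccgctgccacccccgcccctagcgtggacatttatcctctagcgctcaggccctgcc

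In the MMP7 window the AP-1 match lay 67 to 61 bases before the start, the TCF matches 194 to 189 and 108 to 103 bases before it, and the PEA3 matches 169 to 164 and 145 to 140 bases before it. The PLAUR window held an AP-1 match 186 to 180 bases and a PEA3 match 15 to 10 bases before the start. In TIMP1 the variant AP-1 letters lay 101 to 95 bases and a PEA3 match 87 to 82 bases before the start. Of 35116 RefSeq promoter windows of the same length, 6.57% held TGANTCA, 2.21% TGAGTAA, 11.2% CTTTGA and 28.7% AGGAAG. None of the matches shown overlapped another. Promoters were found for 7 of the 9 genes, and not for PLAT and TIMP2. The windows of MMP14, MMP15, MMP24 and PLAU held none of these 4 motifs. SP1 letters (GGGCGG, in 42.6% of windows) occurred in MMP14, MMP15, MMP24 and TIMP1, and EGR letters (GCGNGGGCG, in 8.41%) in MMP24 and PLAUR. A match describes letters in the window and shows no binding, and RefSeq starts differ from the GENCODE starts of these genes. By the GENCODE positions given below, the windows of PLAUR and PLAU lay wholly inside the gene. The other windows reached partly into theirs.

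Library totals ran from 9881720 to 16813951 counts in shECM1 and from 11792872 to 14781799 in shNC. ECM1, the targeted gene, was lower in every shECM1 library than in any shNC library (log2 fold change -1.58 ± 0.32 SE) but was not called by the quasi-likelihood test of edgeR (Benjamini-Hochberg adjusted p = 0.0973), while a call was made by DESeq2 (adjusted p = 0.0255) and by edgeR without shNC replicate 2 (-1.88, 0.000192). The shNC libraries differed among themselves, and shNC replicate 2 stood beside the shECM1 libraries on the first principal component, which held 58.1% of the variance. Values without that library are therefore given beside those of the 9 genes and of the protease genes named below where the call changes. Because that library was picked for lying near shECM1, leaving it out tends to widen the group difference. Calls made that way add no separate support. Over all genes, edgeR called 3037 without it, 0 on all libraries and 0 without shNC replicate 3. Of 12 colorectal epithelial markers 10 passed the count filter, with KRT8 at 5708 to 6826 CPM (counts scaled to a common library size by TMM) in shECM1 and 5987 to 8734 CPM in shNC, and EPCAM at 483.5 to 538 CPM in shECM1 and 454.6 to 501.4 CPM in shNC. CEACAM5, another of them, was called lower by DESeq2 (log2 fold change -0.84 ± 0.21 SE by edgeR, DESeq2 adjusted p = 0.00848). EdgeR without shNC replicate 2 called 4 of the 10 epithelial markers lower, CEACAM5, CDH1, KRT8 and KRT18, and 0 higher. That fit called 14.1% of all genes lower and 9.73% higher. With all libraries, 7 of the 10 had a negative and 3 a positive log2 fold change. The 3 were CDX2 (0.31 ± 0.25 SE), EPCAM (0.14 ± 0.10) and LGALS4 (0.13 ± 0.43). LGALS4 and KRT20, markers of differentiated colonocytes, stayed under 2 CPM in every library.

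Of the 9 genes, 8 passed the filter on low counts. Across all 12576 genes tested, edgeR's quasi-likelihood test called 0 at an adjusted p under 0.05, and hence 0 of these 8, against 0.0% of all genes. At an unadjusted p under 0.05, 6 of the 8 were lower in shECM1, where 14.2% of all genes tested were lower, and 0 of the 8 were higher, where 8.31% of all genes were. The 6 were MMP7, MMP14, PLAU, PLAUR, TIMP1 and TIMP2. Their median log2 fold change with MMP15 and MMP24 was -0.63, beside 0.01 over all genes tested. The genes were chosen with earlier results of these data known, so this count and median add no separate support. Across the libraries the 6 genes varied together (Pearson r of log2 CPM 0.80 to 0.96 between pairs). By DESeq2 the unadjusted p of PLAU was 0.1345. In 3 of the 8, PLAUR, TIMP2 and MMP24, every shECM1 library lay below every shNC library, as in 13.2% of all genes, and in 0 of the 8 above, as in 11.2%. DESeq2 called 2 of them lower, TIMP1 and TIMP2, and 0 higher, where it called 6.17% of genes in all, 5.13% lower and 1.04% higher. With no count filter edgeR called PLAUR and TIMP2 lower, where it called 3.08% of genes in all, 2.83% lower and 0.256% higher. Limma-voom called 0. Without shNC replicate 2, edgeR called 6 of 9 lower and 0 higher, where it called 23.9% of all genes, 14.1% lower and 9.73% higher. If the columns are bulk samples, fewer cells of a type and less RNA per cell cannot be told apart.

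**Figure D1:**
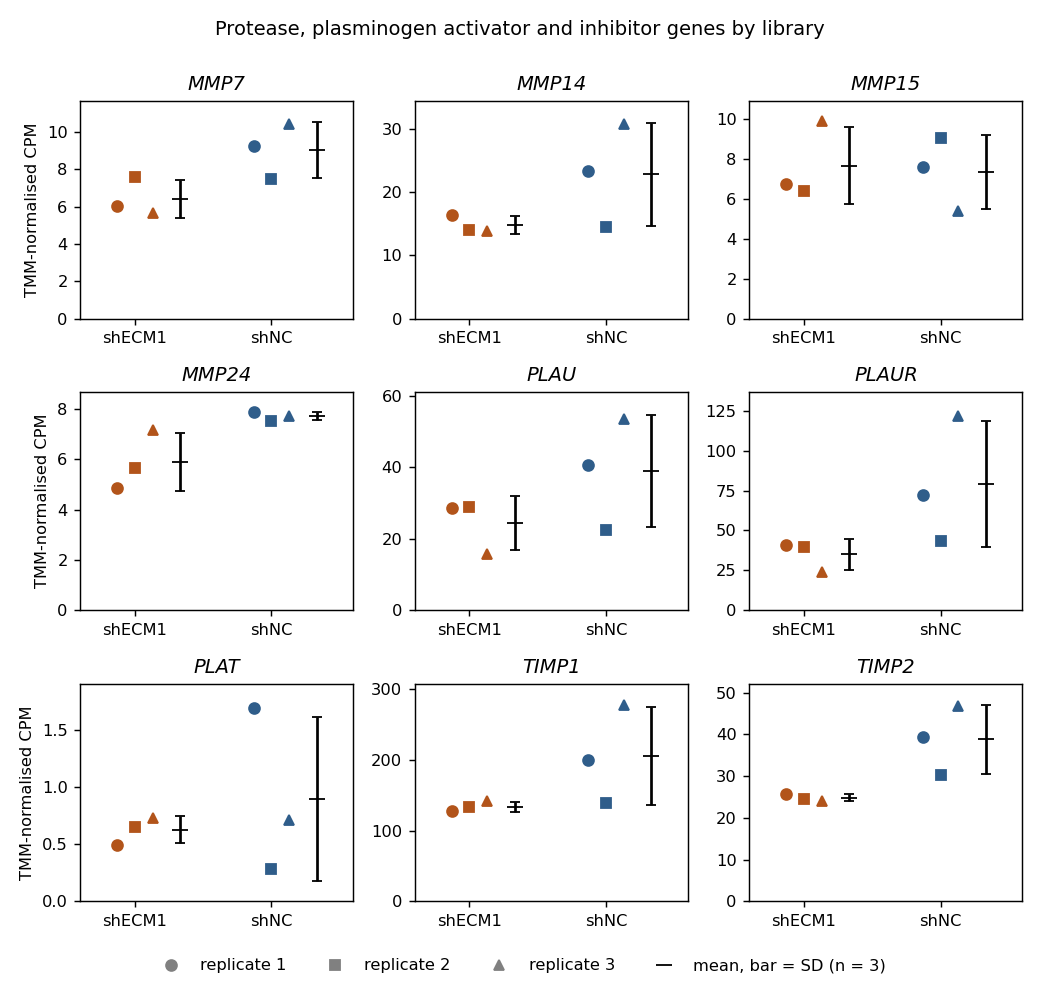
TMM-normalised CPM (y axes, linear and from 0) of the 9 genes in the shECM1 libraries (left in each panel) and the shNC libraries (right). Symbols are replicates, and the black marks are the mean with SD (n = 3). In 8 panels shNC replicate 2 (square) is the lowest shNC library, and in MMP15 it is the highest.

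Of the 4 metalloproteinases, MMP14 (14:22836557-22849027 on GRCh38, plus strand), the membrane-bound MT1-MMP that cuts fibrillar collagen at the cell surface, had the highest counts. It stood at 16.4, 14.0 and 13.8 CPM in shECM1 replicates 1, 2 and 3, and at 23.3, 14.4 and 30.7 CPM in shNC replicates 1, 2 and 3. The shECM1 libraries lay close together, and the groups overlapped only through shNC replicate 2, which sat between shECM1 replicates 1 and 2. The means were 14.7 ± 1.43 and 22.8 ± 8.15 CPM (SD, n = 3 each), a log2 fold change of -0.64 ± 0.23 (SE) with an edgeR adjusted p of 0.151. Without shNC replicate 2 it was called at -0.87 (edgeR adjusted p = 0.00268), and without shNC replicate 3 it was -0.36 and not called (0.526).

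MMP7 (11:102520508-102530753, minus strand), a small secreted enzyme that lacks the hemopexin domain of most family members, was at 6.06, 7.57 and 5.63 CPM in the shECM1 replicates, against 9.22, 7.47 and 10.45 CPM in the shNC replicates. These levels rest on 61 to 127 counts per shECM1 library and 104 to 146 per shNC library. The groups overlapped by 1 pair, since shECM1 replicate 2 was just above shNC replicate 2. MMP7 had a log2 fold change of -0.49 ± 0.20 (SE; edgeR adjusted p = 0.190). Without shNC replicate 2 it was -0.59, just past the threshold (edgeR adjusted p = 0.0473), while DESeq2 without that library did not call it (adjusted p = 0.0894).

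MMP24 (MT5-MMP, 20:35226654-35277000, plus strand), a membrane metalloproteinase known mainly from nervous tissue, had 4.87, 5.66 and 7.17 CPM in shECM1 and 7.87, 7.54 and 7.73 CPM in shNC. Here the control libraries were nearly equal, with shNC replicate 2 no longer apart, and the shECM1 libraries all lay below them. The log2 fold change was -0.38 ± 0.20 (SE; edgeR adjusted p = 0.273), and 0 of the alternatives run called it. Without shNC replicate 2 it was again -0.38 (edgeR adjusted p = 0.210). With an shECM1 library left out it moved more, to -0.26 without replicate 1 and -0.54 without replicate 3. MMP24OS, on the opposite strand, shares 799 exonic bases with MMP24 and was at 52.5 ± 4.60 CPM in shECM1 and 73.1 ± 21.6 CPM in shNC. Whether counting used strand is not given in the sources used here. Reads in the shared bases could therefore be added to the MMP24 count or be missing from it, and its value is uncertain.

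MMP15 (MT2-MMP, 16:58025566-58046901, plus strand), a close relative of MMP14, was the gene of the 9 with a positive fold change. Its levels were 6.75, 6.38 and 9.88 CPM in shECM1 and 7.61, 9.05 and 5.37 CPM in shNC, so the groups overlapped widely. The log2 fold change was 0.06 ± 0.24 (SE), with a 95% interval from -0.47 to 0.60 (edgeR adjusted p = 0.894), so a lower and a higher level within those bounds could not be told apart. Its sign turned when 1 library was left out, to -0.16 without shECM1 replicate 3 and -0.12 without shNC replicate 3, and it was 0.26 without shNC replicate 2 (edgeR adjusted p = 0.474). ShECM1 replicate 3 and shNC replicate 2 were highest, the libraries in which PLAUR was lowest in its group.

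Beyond these 4, the family was sparse. Of 23 metalloproteinase genes listed, 8 passed the filter, 7 had a count of 0 in every library, and the other 8 had at most 9 counts in any library. MMP2, the gelatinase that MMP14 activates, was among those at 0, which allows at most 0.298 CPM in the shallowest library, a limit for counting error alone. MMP9 had 0 counts in the shECM1 libraries and 1, 1 and 2 in the shNC libraries. The 4 other tested genes were MMP11, MMP17, MMP19 and MMP25, and 3 of them had a negative fold change. MMP19 had a log2 fold change of -0.33 ± 0.19 (SE), with overlapping groups. MMP17 (MT4-MMP), anchored to the membrane by a lipid, was at 17.2, 14.4 and 15.4 CPM in shECM1 and 21.2, 20.8 and 21.4 CPM in shNC. Its groups did not overlap (log2 fold change -0.44 ± 0.13 SE, edgeR adjusted p = 0.117), and as with MMP24 the 3 control libraries were close together. It was called by edgeR without shNC replicate 2 (-0.43, adjusted p = 0.0490), and not by DESeq2 without that library (0.0771).

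Of the urokinase gene, its receptor and the tissue-type activator, the receptor gene had the lowest fitted fold change. PLAUR (19:43646095-43670547, minus strand) encodes the receptor that holds urokinase on the cell surface. It had 41.0, 39.7 and 24.0 CPM in the shECM1 replicates and 72.2, 43.6 and 122 CPM in the shNC replicates. The groups did not overlap, but shNC replicate 2 exceeded shECM1 replicate 1 only slightly. The means were 34.9 ± 9.46 and 79.2 ± 39.6 CPM (SD, n = 3 each), a fitted level 2.27-fold lower in shECM1. The log2 fold change of -1.18 ± 0.31 (SE) was not called (edgeR adjusted p = 0.105), although 1.19% of genes had a lower one. With no count filter edgeR called it (adjusted p = 0.0202), as it did without shNC replicate 2 (-1.46, adjusted p = 0.00107), while DESeq2 on all libraries did not (adjusted p = 0.108). Without shNC replicate 3, its highest library, the value was -0.73 and uncalled (edgeR adjusted p = 0.308).

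PLAU (10:73909177-73917497, plus strand), the urokinase gene, stood at 28.6, 29.01 and 15.8 CPM in shECM1 and at 40.7, 22.6 and 53.7 CPM in shNC. Both shECM1 replicates 1 and 2 were above shNC replicate 2, and shECM1 replicate 3 was the lowest of all, as for PLAUR. At -0.67 ± 0.29 (SE), its log2 fold change was not called (edgeR adjusted p = 0.204). It was -0.94 without shNC replicate 2 (edgeR adjusted p = 0.00909), -0.37 without shNC replicate 3 (0.606) and -0.43 without shECM1 replicate 3 (0.401). C10orf55, on the opposite strand, shares 916 exonic bases with PLAU, and without strand its reads could not be told apart from those of PLAU.

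PLAT (8:42175233-42207724, minus strand), the tissue-type activator, was barely detected, with 5, 11 and 10 counts in shECM1 and 20, 4 and 10 counts in shNC, and did not pass the filter. Its levels of 0.496, 0.655 and 0.732 CPM in shECM1 lay within the range of 0.287 to 1.69 CPM in shNC. No fold change could be told from the spread at this depth. Plasminogen itself (PLG) had 0 counts in all 6 libraries.

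Both tested inhibitors were lower in shECM1 than in most control libraries. TIMP1 (X:47582313-47586789, plus strand), a secreted inhibitor of most metalloproteinases, was the most abundant of the 9 genes, at 127, 133 and 141 CPM in shECM1 and 200.2, 138 and 277 CPM in shNC. The shECM1 libraries spanned a coefficient of variation of 5.24% and shNC 33.9%, and shNC replicate 2 lay inside the shECM1 range. TIMP1 differed by a log2 fold change of -0.62 ± 0.20 (SE; edgeR adjusted p = 0.124). DESeq2 called it (adjusted p = 0.0351), and so did edgeR without shNC replicate 2 (-0.82, adjusted p = 0.00107). Without shNC replicate 3 it was -0.34 (edgeR adjusted p = 0.414).

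TIMP2 (17:78852977-78925387, minus strand) was the gene of the 9 with the smallest p-value. It was at 25.7, 24.5 and 24.1 CPM in shECM1 and at 39.3, 30.2 and 46.9 CPM in shNC, and the groups did not overlap. The shECM1 libraries again lay within a narrow range (coefficient of variation 3.41%, against 21.5% in shNC). The log2 fold change was -0.65 ± 0.16 (SE; edgeR adjusted p = 0.0973). It passed the threshold in 4 of 16 fits: DESeq2 (adjusted p = 0.0120), edgeR on unfiltered counts (0.0296), edgeR without shNC replicate 2 (-0.79, 0.00142), and DESeq2 without that library (1.61e-05). Without shNC replicate 3, TIMP2 was at -0.49 and not called (edgeR adjusted p = 0.308). Limma-voom (adjusted p = 0.1445) and the replicate block in edgeR (0.152) did not call it either. CEP295NL, which shares 198 exonic bases with TIMP2 on the same strand, stayed under 0.36 CPM in every library. AC022966.1 shares 367 exonic bases on the opposite strand.

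**Figure D2:**
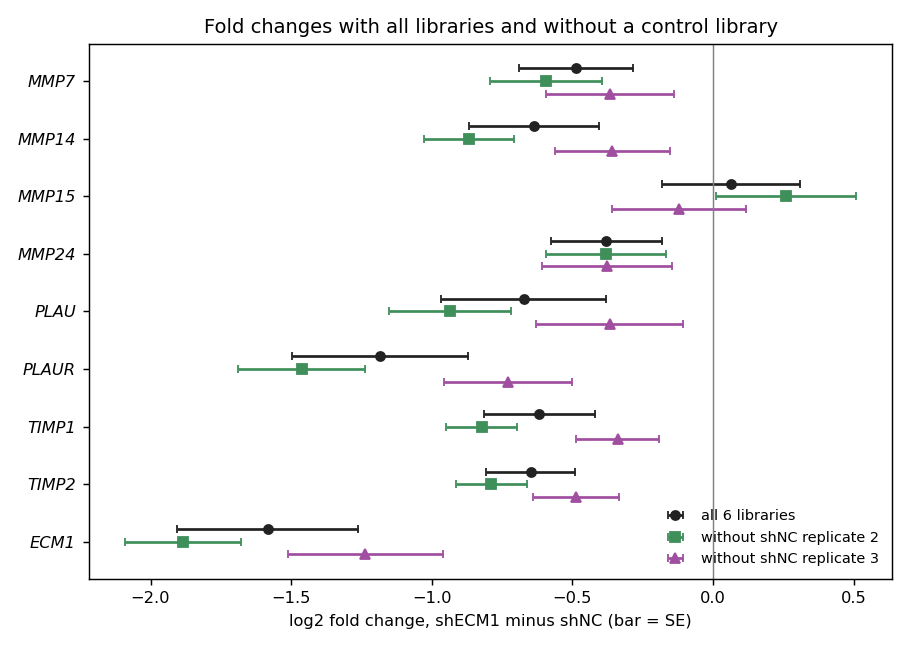
Log2 fold change, shECM1 minus shNC, with SE, from edgeR's fit over all genes, for the 8 tested genes and ECM1. Black circles use all 6 libraries, green squares leave out shNC replicate 2, and purple triangles leave out shNC replicate 3. The fold changes of PLAUR run from -0.73 to -1.46 and those of MMP15 lie on both sides of 0, while MMP24 stays near -0.38 in the fits shown.

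The 6 genes with an unadjusted p under 0.05 shared an order in the control group: shNC replicate 3 was highest, then replicate 1, then replicate 2, as for ECM1 itself. On the first principal component of all tested genes these libraries had the same order, at 41.25, 25.17 and -8.64. The share of all genes with this order was not counted, so it is not particular to these genes or to ECM1. The orders in shECM1 differed between the 6 genes. TIMP1 was highest in replicate 3 there, whereas MMP7, MMP14, PLAU, PLAUR and TIMP2 were lowest in it. Likeness over the 6 libraries was taken as the highest Pearson correlation of log2 CPM. It was sought among tested genes with a symbol and a mean log2 CPM of at least 1. By this measure, PLAUR was closest to PTPRH, TEP1 and KIAA0040, each at r = 0.999. TIMP2 was closest to IGSF9B, RREB1 and RGS12 (r = 0.998 to 0.999), and MMP7 to PTTG1IP, PHLDA3 and CCR7 (0.987 to 0.997). MMP14 was closest to STK40, ABTB1 and EPB41L2, TIMP1 to CCDC85B, SMOX and ALDOA, and PLAU to ARFGAP3, MSMO1 and HBEGF. MMP15 was closest to ZDHHC8, HOOK2 and LHX6, and MMP24 to COLGALT1, MFSD13A and SAGSIN1. These are descriptions over 6 points that share the difference between the groups and between shNC libraries.

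Levels were set against each other per kilobase of exon (CPM per kb), which assumes reads over the whole transcript, while the labels also describe a 3′ library kit. Over all 6 libraries TIMP1 led at 109.9 ± 38.3 CPM per kb and did not overlap with any other of the 9 genes. PLAUR (12.8 ± 7.93), PLAU (10.8 ± 4.59), TIMP2 (5.65 ± 1.66), MMP14 (4.21 ± 1.54) and MMP7 (3.33 ± 0.792) followed, and the range of each overlapped with the next in that order. Within single libraries, PLAU was above TIMP2 and TIMP2 above MMP14 in all 6. MMP14 was above MMP7 in 5 libraries, and PLAUR above PLAU in 4. MMP15 (1.70 ± 0.385) and MMP24 (1.54 ± 0.282) lay below MMP7 without overlap and did not separate from each other, and PLAT was lowest at 0.115 ± 0.0733 (SD, n = 6 each). By group means, the order of 2 neighbouring pairs differed between the groups, though not in every library. PLAU (8.29 ± 2.54) stood above PLAUR (7.83 ± 2.12) in shECM1, and below it in shNC (13.2 ± 5.30 for PLAU and 17.8 ± 8.87 for PLAUR; SD, n = 3 each). In shECM1 replicate 3, PLAU was just below PLAUR (ratio 0.995). Without division by length, PLAUR was above PLAU in both groups. PLAUR and PLAU averaged 34.9 and 24.5 CPM in shECM1, and 79.2 and 39.0 CPM in shNC. MMP15 averaged 1.73 ± 0.435 and MMP24 1.34 ± 0.265 CPM per kb in shECM1. In shNC they averaged 1.66 ± 0.420 and 1.75 ± 0.0371 (SD, n = 3 each). In shNC replicate 2, MMP15 was above MMP24 (9.05 and 7.54 CPM, at nearly equal lengths).

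The ratio of urokinase to receptor transcripts was higher in every shECM1 library than in any shNC library. Per kilobase, PLAU stood to PLAUR as 1.05, 1.105 and 0.995 in the shECM1 replicates and as 0.852, 0.782 and 0.666 in the shNC replicates, with no overlap and with shNC replicate 2 between the other controls. In contrast, MMP14 to TIMP2 (0.749 ± 0.0472 in shECM1, 0.726 ± 0.114 in shNC) and MMP7 to TIMP1 (0.0320 ± 0.00570 in shECM1, 0.0305 ± 0.00540 in shNC) had overlapping ratios (SD, n = 3 each). These ratios do not depend on how libraries were scaled, and they were not tested. The PLAU to PLAUR ratio restates the fold changes of both genes given above. How often the ratio of a pair of genes is without overlap was not counted. For single genes tested, 13.2% were lower and 11.2% higher in shECM1 without overlap.

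**Figure D3:**
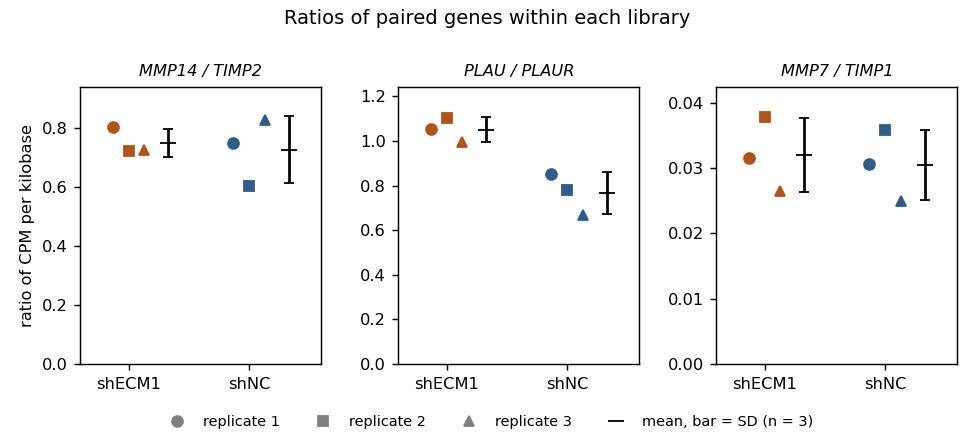
Ratio of CPM per kilobase of exon (y axes, linear and from 0) for 3 gene pairs in each library, with shECM1 left and shNC right. Symbols are replicates, and black marks are the mean with SD (n = 3). PLAU to PLAUR is 0.995 or more in shECM1 and 0.852 or less in shNC, while MMP14 to TIMP2 and MMP7 to TIMP1 overlap.

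Around these genes, 6 lists of other proteases and inhibitors held 117 genes, of which 73 were tested and 61 had a negative fold change (median -0.25, beside 0.01 over all genes tested, of which 48.6% were negative). These lists too were chosen with earlier results of these data known. EdgeR called 0 of the 73. At an unadjusted p under 0.05, 25 were lower and 2 were higher in shECM1, beside 14.2% lower and 8.31% higher over all genes. DESeq2 called 7 lower and 0 higher, beside 5.13% and 1.04%. Without shNC replicate 2, edgeR called 27 lower and 1 higher, beside 14.1% and 9.73%. Without shNC replicate 3, edgeR called 0 of them and 0 genes in all. In that fit, of genes named below, LRP1 was at -0.73 and PRSS22 at -0.90 (edgeR adjusted p = 0.2445 and 0.2475). TMPRSS2 was at -0.335 and CTSB at -0.24 (edgeR adjusted p = 0.402 and 0.475).

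Of the partners of the plasminogen system, 15 of 20 were tested, 13 were negative (48.6% over all genes) and 7 were lower at an unadjusted p under 0.05 (14.2% over all genes). LRP1, an endocytic receptor that takes up proteases bound to their inhibitors, was at 102, 97.2 and 84.3 CPM in shECM1 and at 191.5, 122.7 and 255 CPM in shNC, without overlap (log2 fold change -1.005 ± 0.21 SE, edgeR adjusted p = 0.0973, DESeq2 adjusted p = 0.000532), and edgeR called it without shNC replicate 2 (adjusted p = 0.000191). MRC2, a collagen receptor that associates with PLAUR, was at 0.0993, 0.477 and 0.366 CPM in shECM1 and 2.20, 1.01 and 1.93 CPM in shNC, without overlap. Its log2 fold change was -2.29 ± 0.50 (SE; edgeR adjusted p = 0.0973), and DESeq2 gave no adjusted p at this low level. EdgeR called MRC2 with no count filter (adjusted p = 0.0222) and without shNC replicate 2 (-2.55, adjusted p = 0.00255), as did DESeq2 without that library (adjusted p = 0.00361). SERPINB5 (maspin) had a log2 fold change of -0.56 ± 0.19 (SE), which edgeR called without shNC replicate 2 (-0.62, adjusted p = 0.0384). The abundant plasminogen-binding genes ENO1 and ANXA2 were at -0.15 ± 0.11 and -0.23 ± 0.14, with overlapping groups, and DESeq2 without shNC replicate 2 called ANXA2 (-0.34, adjusted p = 0.0433). SERPINE2, an inhibitor of urokinase that was singled out from its values, had a log2 fold change of -0.74 ± 0.21, which DESeq2 called (adjusted p = 0.0156), as did edgeR without shNC replicate 2.

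All 18 tested membrane serine proteases and serine protease inhibitors were negative (48.6% over all genes), and 9 were lower at an unadjusted p under 0.05 (14.2% over all genes). PRSS22, a secreted serine protease known to cut the urokinase precursor, was at 14.3, 12.9 and 10.2 CPM in shECM1 and 29.9, 16.8 and 41.3 CPM in shNC, without overlap (log2 fold change -1.24 ± 0.27 SE, edgeR adjusted p = 0.0973, DESeq2 adjusted p = 0.000833). With shNC replicate 2 left out, edgeR called PRSS22 (adjusted p = 0.000310), TMPRSS6 (0.00196), TMPRSS2 (0.00286) and SPINT2 (-0.31, adjusted p = 0.0361). TMPRSS6 (-1.41 ± 0.38) and TMPRSS2 (-0.56 ± 0.17) had no overlap either, and DESeq2 called both (adjusted p = 0.0322 and 0.0393). The inhibitor SPINT2 was at -0.24 ± 0.11 without overlap, and SERPINB1 at -0.13 ± 0.11 with overlap. TMPRSS4, also singled out from its values, stood at -1.09 ± 0.29 (DESeq2 adjusted p = 0.00441). It was also called by edgeR without shNC replicate 2 (-1.40, adjusted p = 0.000186).

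The medians of the other lists lay nearer to 0 than those of the plasminogen partners and the serine proteases, at -0.37 and -0.34, except for the 4 other metalloproteinases at -0.38. Among inhibitors and activators of metalloproteinases, 7 of 8 tested genes were negative (median -0.28), with 1 lower at an unadjusted p under 0.05, near the 14.2% over all genes. RECK, a membrane-anchored inhibitor, was at 2.48, 1.85 and 2.63 CPM in shECM1 and 3.47, 2.87 and 4.01 CPM in shNC, without overlap (-0.58 ± 0.27 SE). SPOCK2 was at -1.10 ± 0.34 without overlap, and edgeR called it without shNC replicate 2 (-1.38, adjusted p = 0.00368). Close to 0 were the abundant genes BSG and PCSK7, at -0.02 ± 0.10 and -0.10 ± 0.10. In the ADAM and ADAMTS families 11 of 14 were negative, with a median of -0.11. ADAM19, singled out because DESeq2 called no other gene of this list, stood at -0.80 ± 0.24 with overlapping groups (DESeq2 adjusted p = 0.0157). EdgeR called ADAM19 with no count filter (adjusted p = 0.0361) and without shNC replicate 2 (-1.02, adjusted p = 0.00167). ADAM8 was at -0.56 ± 0.17 without overlap, and edgeR called it without shNC replicate 2 (-0.62, adjusted p = 0.0215). The sheddase genes ADAM9 and ADAM17 were at -0.10 ± 0.12 and -0.25 ± 0.16 with overlap. Of 14 tested cathepsins and cystatins, 9 were negative and 5 positive. Here the 2 most abundant went opposite ways, with CTSB at 295.9, 293.8 and 276.7 CPM in shECM1 and 377.3, 305.4 and 407.9 CPM in shNC (-0.33 ± 0.12 SE), and CTSC at 172.8, 184.1 and 224 CPM in shECM1 and 160.4, 171.6 and 145 CPM in shNC (0.28 ± 0.12 SE). CTSS, near 1 CPM, was at -0.39 ± 0.35. CTSB and CTSC were without overlap, and neither was called on all libraries (edgeR adjusted p = 0.143 and 0.197). Leaving out shNC replicate 2, edgeR called CTSB (-0.43, adjusted p = 0.00750), and DESeq2 called CTSB (adjusted p = 0.000682) and CTSC (0.0455), while edgeR did not call CTSC (0.0529).

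**Figure D4:**
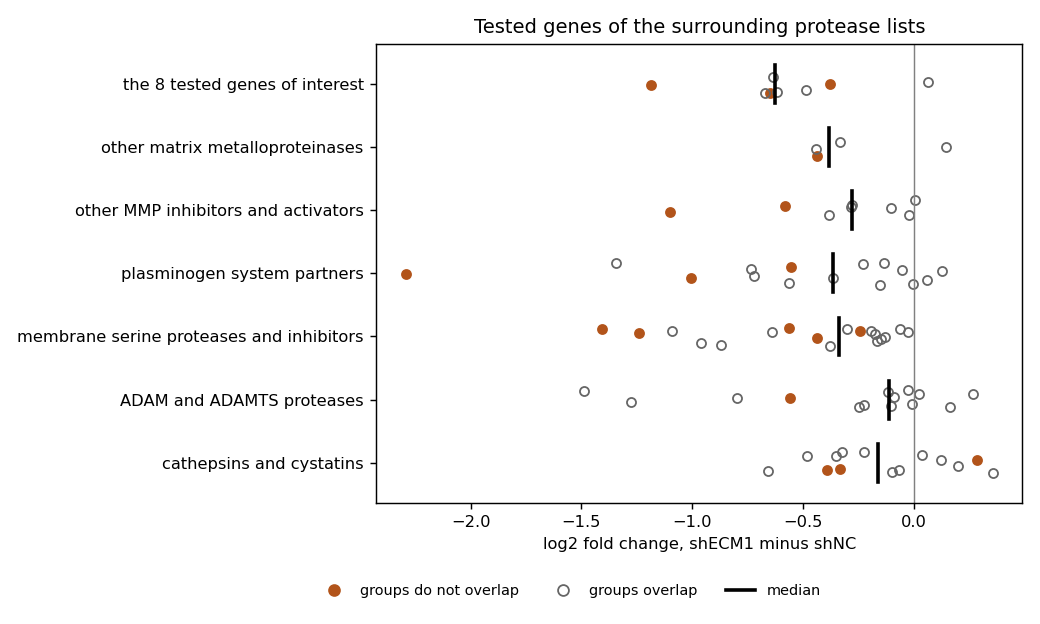
Log2 fold change, shECM1 minus shNC, of each tested gene in the 9-gene set and in the 6 surrounding lists (rows). Filled points are genes whose groups do not overlap, and the black bars are medians. Medians run from -0.63 in the top row to -0.11 for the ADAM and ADAMTS proteases, and CTSC is the filled point right of 0.

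Markers of other cell types were also mostly at lower values in shECM1, where 48.6% of all genes tested had a negative fold change. The fibroblast list held 15 markers, of which 7 passed the filter with negative fold changes in all 7. Its summed level was 643 to 709 CPM in shECM1 and 716 to 1050 CPM in shNC. Most of that sum was S100A4, at 485.5 to 559.1 CPM in shECM1 and 517.7 to 678.9 CPM in shNC (log2 fold change -0.11 ± 0.12 SE). COL6A1 was at 81.4 to 86.8 CPM in shECM1 and 118 to 216 CPM in shNC, a log2 fold change of -1.01 ± 0.18 (SE). PDGFRA, COL3A1, FAP and POSTN were at 0 in every library. DESeq2 called COL1A1, COL6A1, COL6A2 and FBLN1 lower, where it called 5.13% of all genes lower. The immune list summed to 52.1 to 80.8 CPM in shECM1 and 80.9 to 199 CPM in shNC. Of its 18 genes 4 were tested, CD68, LYZ, CD4 and CSF1R, all 4 negative. Most of the sum was CD68, at 41.4 to 71.9 CPM in shECM1 and 68.9 to 175.2 CPM in shNC, with overlapping groups (log2 fold change -1.05 ± 0.29 SE). PTPRC, CD3E, CD2, MS4A1, FCGR3A and TYROBP were at 0. The endothelial list summed to 14.6 to 15.9 CPM in shECM1 and 20.6 to 24.5 CPM in shNC, with 4 of 13 tested and KDR, EMCN, ERG and PLVAP at 0. Their part in the results was not tested.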

How the data were processed

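Whole-number counts per gene were deposited for 6 SW620 libraries, 3 shECM1 and 3 shNC. The authors' counts are raw. The submitters' processing notes name the builds GRCh38 and hg38 and the tools STAR, featureCounts, fastp, Seurat and DESeq2. Not given in the sources used here: what each tool did, its version, the annotation and the strand setting. The labels describe total RNA and droplet single-cell libraries without saying which kind a column holds. Of 20476 identifiers, 20462 were matched to a symbol, and 20244 to GENCODE release 29 (GRCh38), which gave exon lengths and overlaps.

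Counts were analysed with edgeR 4.0.16 in R 4.3.3 (filterByExpr by group, TMM, glmQLFit, glmQLFTest, no covariate), with Benjamini-Hochberg adjustment over all 12576 genes tested and a threshold of 0.05. Log2 fold changes are shECM1 over shNC, with an SE equal to the absolute value divided by the square root of F. Levels are TMM-normalised CPM as mean ± SD. Precision is set by totals of 9881720 to 16813951 counts and by the spread among shNC libraries. Alternatives were RLE, upper-quartile and library-size scaling, no filter on counts, a stricter filter (50 counts or more in 3 samples or more), DESeq2 1.42.0 on all genes with a count, limma-voom (limma 3.58.1), a replicate block and leaving out each library. The edgeR steps were tested on simulated counts. DESeq2 without shNC replicate 2 and the TGAGTAA search were added after seeing the data. No 2 libraries of the same group agreed within sampling noise (chi-square per gene of at least 3.32).

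The genes and lists were chosen with earlier results of these data known. Named genes were the 9, ECM1, 2 per list by level, up to 3 per list by p among those without overlap, the 3 genes of highest correlation with each of the 9, and fixed gene pairs, of which those that involve 1 gene are not reported here. Floors for a count of 0 cover counting error only.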

Additional observations from a re-analysis of the deposited data

How the results depend on the processing

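Of the 9 genes, 0 were called as reported and 0 under RLE, upper-quartile or library-size scaling, the filter of at least 50 counts, limma-voom and the replicate block. Each of these fits called 0 genes in all. With no count filter edgeR called 2 (PLAUR and TIMP2), and DESeq2 called 2 (TIMP1 and TIMP2). Leaving out 1 library gave 0 to 6, with all 6 calls made without shNC replicate 2, and DESeq2 without that library called 5. Over the surrounding lists the counts were 9 with no count filter, 7 by DESeq2, 0 to 28 when leaving out 1 library, and 28 by DESeq2 without shNC replicate 2. Over all genes they were 505, 717, 0 to 3037 and 2681. MMP15 changed sign, with a log2 fold change of -0.16 to 0.26 when leaving out 1 library. So did ADAM9 (-0.17 to 0.0049) and BSG (-0.077 to 0.014, and 0.0048 by library size only). The cause was not tested. The other tested genes of the 9 kept a negative sign under every alternative run. The replicate numbers are shared between groups, but same-numbered libraries did not deviate together (r of -0.07, -0.05 and -0.18), so they were not treated as pairs. The replicate block called 0 genes, with 2414 at an unadjusted p under 0.05 against 2827 without it. Counts under 150 per library limit MMP7, MMP15 and MMP24, and PLAT had at most 20.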
